A study of Homo sapiens with 2 samples.

Results

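YAP1, WWTR1 (which encodes TAZ), TEAD1, TEAD2, TEAD3, TEAD4, CCN1, CCN2, AMOTL2 and ANKRD1 are 10 of the 20037 protein-coding genes that the lactyl-lysine peak lists of CAL27 cells were read against. They were taken by name, and every region inside the gene or within 20 kb of either end was kept. CAL27 is an established human line of oral squamous cell carcinoma. CUT&Tag, in which an antibody steers a transposase that cuts and tags the DNA beside its target, was run with a pan-lactyllysine antibody on 1 lactate-labelled library, from cells given 10 mM lactate for 24 hours, and 1 untreated-labelled library, from cells given none. Both came from the same line and antibody, and the antibody reads lactylated lysine on any protein. Since an antibody-free library is not analysed here, transposase cuts in open chromatin in general are not set apart from the mark.

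YAP and TAZ are coactivators that do not bind DNA themselves. When the Hippo kinases are inactive they enter the nucleus and act through the DNA-binding TEAD factors, and when the kinases are active they are phosphorylated and held in the cytoplasm or degraded. In squamous epithelium the pathway is known for linking cell contact and tension to proliferation. YAP1, WWTR1 and the 4 TEAD genes are called regulators here. CCN1 and CCN2, which encode secreted matricellular proteins, AMOTL2, which encodes an angiomotin scaffold that also binds YAP, and ANKRD1, which encodes an ankyrin repeat protein, are called targets, since all 4 are widely used as readouts of YAP and TAZ activity.

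In both peak lists the header runs against the label: the run and every peak (58929 in the list deposited under lactate, 49750 in the list deposited as untreated) are named for the opposite sample. Groups follow the labels, and each direction below depends on that choice. The libraries held 15120031 tags (lactate) and 15696147 tags (untreated). With 1 library per group no test was possible, nothing has a replicate check, and the 95% intervals cover counting error only. Of the squamous epithelium markers TP63, KRT5, KRT14, KRT6A and SFN, all 5 had a region inside or within 20 kb in both libraries, against 83.9% of all genes in the lactate-labelled library and 81.0% in the untreated-labelled library. At a gene end 3 of the 5 had one in the lactate-labelled library and 2 in the untreated-labelled library, against 49.5% and 43.5% of all genes. Of PTPRC, PECAM1 and ALB, markers of other cell types, 2 of 3 had a region within 20 kb in both libraries and 0 had one at a gene end in either. The squamous marker counts are near the shares of all genes.

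The sequences below are the 250 bases before the transcription start (RefSeq, GRCh38.p14) at 5 promoters that a region of at least 1 library overlapped. They are shown because the results below turn on them. A further overlapped window, at the outer start of AMOTL2, is not printed. Capitals mark matches to the TEAD motif GGAATG or its reverse complement CATTCC and, in ANKRD1, to the AP-1 pattern TGANTCA. There N is any base, and the pattern reads the same on both strands. All 5 are written 5′ to 3′ on the strand of the gene.
CCN2, chr6:131951373-131951622, minus strand: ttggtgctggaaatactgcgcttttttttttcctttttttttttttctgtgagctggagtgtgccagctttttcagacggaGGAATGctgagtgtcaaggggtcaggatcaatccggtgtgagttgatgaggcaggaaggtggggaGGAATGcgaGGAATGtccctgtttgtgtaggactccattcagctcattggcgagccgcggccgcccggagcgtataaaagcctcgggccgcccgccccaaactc
ANKRD1, chr10:90921088-90921337, minus strand: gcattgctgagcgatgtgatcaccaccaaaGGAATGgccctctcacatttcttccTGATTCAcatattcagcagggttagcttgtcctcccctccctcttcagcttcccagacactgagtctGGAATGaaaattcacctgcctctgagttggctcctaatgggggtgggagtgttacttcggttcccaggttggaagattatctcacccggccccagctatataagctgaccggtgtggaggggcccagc
AMOTL2, inner start, chr3:134374448-134374697, minus strand: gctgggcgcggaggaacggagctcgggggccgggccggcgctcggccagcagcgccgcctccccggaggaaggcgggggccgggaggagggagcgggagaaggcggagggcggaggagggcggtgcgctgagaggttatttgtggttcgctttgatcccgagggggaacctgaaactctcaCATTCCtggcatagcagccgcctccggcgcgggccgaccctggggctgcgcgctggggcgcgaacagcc
YAP1, chr11:102110197-102110446, plus strand: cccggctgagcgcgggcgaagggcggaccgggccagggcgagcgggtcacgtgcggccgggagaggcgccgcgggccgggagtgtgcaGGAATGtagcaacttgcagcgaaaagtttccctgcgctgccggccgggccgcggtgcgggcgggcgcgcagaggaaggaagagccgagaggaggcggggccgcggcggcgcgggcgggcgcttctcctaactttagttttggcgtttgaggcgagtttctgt
WWTR1, inner start, chr3:149658026-149658275, minus strand: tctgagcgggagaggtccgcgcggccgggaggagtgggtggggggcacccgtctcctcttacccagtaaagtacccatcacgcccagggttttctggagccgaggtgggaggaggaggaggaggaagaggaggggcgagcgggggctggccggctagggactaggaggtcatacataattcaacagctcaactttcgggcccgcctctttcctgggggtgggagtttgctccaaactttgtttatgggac

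Promoter windows reach from 250 bases before to 50 bases after a start. Of the 10 genes, 7 matched the promoter table, with 10 windows between them, and TEAD1, TEAD4 and CCN1 did not. A region overlapped 5 of the 10 windows in the lactate-labelled library, against 30.9% of all 35116 windows, and 6 of the 10 in the untreated-labelled library, against 26.6%. Among regulators this was 1 and 2 of 6 windows, which came from 4 genes, with 2 each at WWTR1 and TEAD2. Among targets it was 4 of 4 in both libraries, where AMOTL2 gave 2 of the 4.

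The TEAD motif was found in 4 of the 10 windows and in 14.0% of all windows. It occurred 3 times before CCN2, at 169, 104 and 95 bases before the start, and all 3 matches lay inside the region of each library. ANKRD1 had matches at 220 and 128 bases before its start. The farther one lay inside the region of both libraries, and the nearer one inside that of the lactate-labelled library only. The AP-1 pattern, with any base at its centre, was present in 7.71% of all windows. Among these 10 it was found only in the ANKRD1 window, as TGATTCA at 195 bases before the start. A stricter form with only C or G at the centre would not match these letters. The match, at 90921276 to 90921282, lay inside the region of the lactate-labelled library. The region of the untreated-labelled library began just beyond it, at 90921286. The single match of AMOTL2, at 69 bases, lay inside the region of both libraries. The single match of YAP1, at 162 bases, lay inside that of the untreated-labelled library alone. No window of WWTR1, TEAD2 or TEAD3 held either motif. A match describes the letters and says nothing of a factor being bound.

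Together the 10 genes had 53 regions in the lactate-labelled library and 41 in the untreated-labelled library, a ratio of 1.29 (95% interval 0.844 to 1.99), and over all regions the ratio was 1.15. The ratio was 2.30 (interval 1.05 to 5.41) with a fold enrichment of at least 5 and 1.49 (interval 1.02 to 2.19) with every summit counted. For scale, all summits numbered 58929 in the lactate-labelled library and 49750 in the untreated-labelled library. The ratio over all regions with a fold enrichment of at least 5 was not computed. Whether either ratio exceeds that of the whole lists was not tested. All 10 had at least 1 region in the lactate-labelled library, where 83.9% of protein-coding genes did, and 9 had one in the untreated-labelled library, where 81.0% did. The gene without was TEAD4. The reverse, a region in the untreated-labelled library alone, was seen at 0 of the 10 genes and at 3.03% of all genes. More regions in the lactate-labelled library were listed at 5 of the 10 genes (YAP1, WWTR1, TEAD1, TEAD4 and ANKRD1) and at 41.2% of all genes. Fewer were listed at TEAD2 and TEAD3, against 18.6% of all genes, and as many at CCN1, CCN2 and AMOTL2, against 27.0%.

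**Figure D1:**
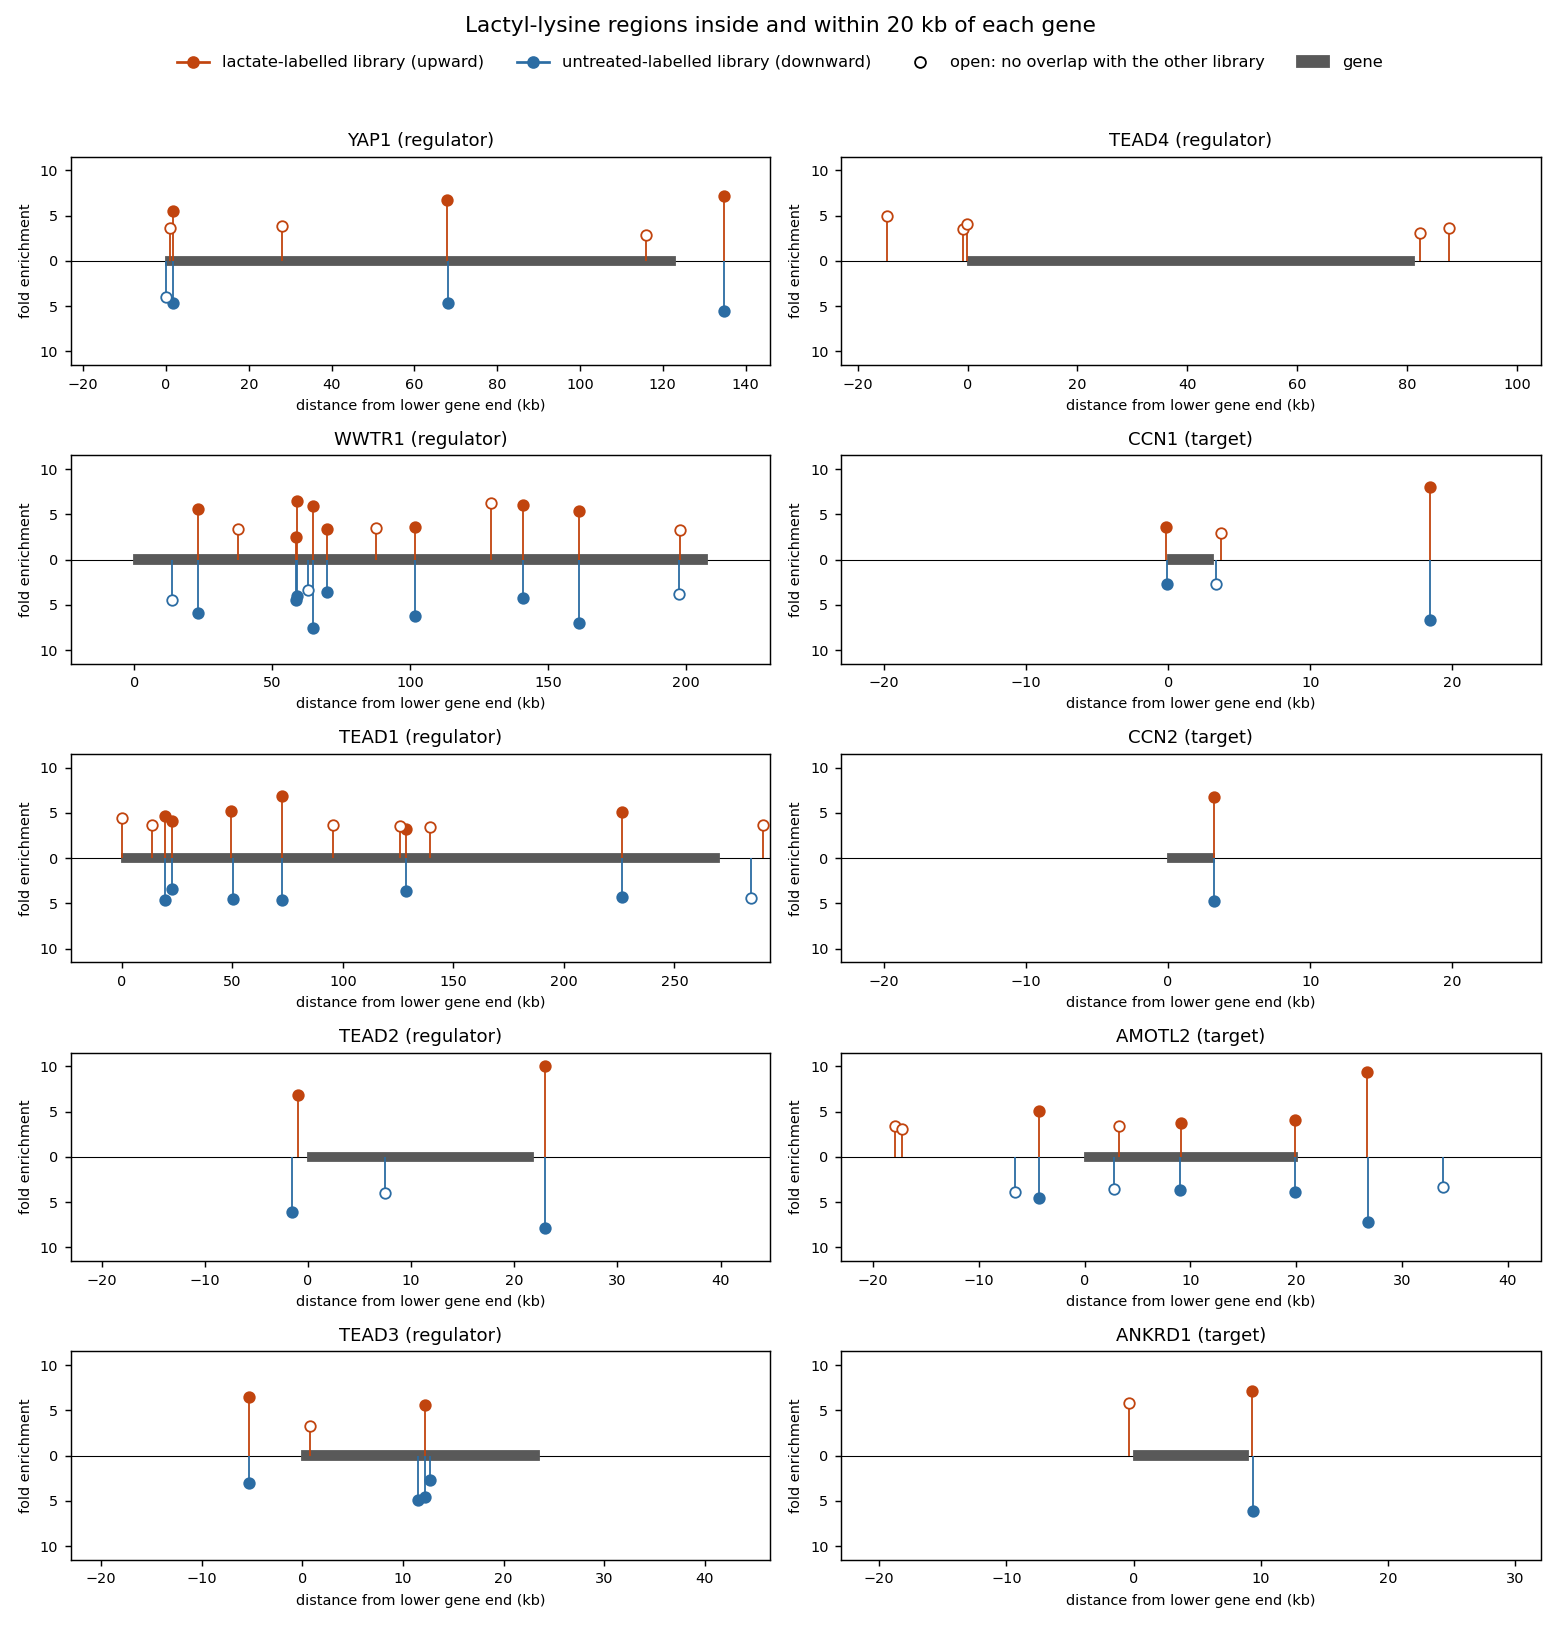
Each panel plots 1 gene with its regions, at the distance of the summit from the lower gene end in kb (x axis), by fold enrichment (y axis, upward for the lactate-labelled library, downward for the untreated-labelled library). Filled points overlap a region of the other library, open points do not, and TEAD4 has 5 open points upward and 0 downward.

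At a gene end, within 1 kb of either end, 9 of the 10 genes had a region in the lactate-labelled library, against 49.5% of all genes, and 6 had one in the untreated-labelled library, against 43.5%. The 6 had one in both libraries, as did 39.8% of all genes. All 4 targets had a gene-end region in both libraries. Of the 6 regulators 5 had one in the lactate-labelled library (all but WWTR1) and 2 in the untreated-labelled library (YAP1 and TEAD2). TEAD1, TEAD3 and TEAD4 had one in the lactate-labelled library alone, as did 9.7% of all genes, and 0 had one in the untreated-labelled library alone, against 3.74%. With only regions of a fold enrichment of at least 5, the 3 regulators were no longer counted, and TEAD2, CCN2 and ANKRD1 remained in the lactate-labelled library and TEAD2 and ANKRD1 in the untreated-labelled library, against 30.3% and 23.3% of all genes. With both lists limited to their 21840 strongest regions, 3 of the 10 genes had a gene-end region in each library, against 28.8% of all genes in the lactate-labelled library and 27.3% in the untreated-labelled library. Under both settings the members' counts were near the shares of all genes.

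In what follows, a pileup is the number of tags over the summit, and the fold enrichment is the authors' value for that pileup over the local background of the same library. The values in parentheses after a region are its pileup and then its fold enrichment. Fold enrichments rank regions within 1 list. Positions are on hg38, and the lower end of a gene is the one with the smaller coordinate.

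YAP1 encodes the coactivator YAP and lies on the plus strand of chromosome 11 from 102110447 to 102233424. Of its 6 regions in the lactate-labelled library and 4 in the untreated-labelled library, 3 overlapped. At the start itself the libraries did not meet. The region of the lactate-labelled library lay inside the gene from 102111299 to 102111688 (pileup 17, fold 3.59), and that of the untreated-labelled library covered the start from 102110180 to 102110464 (18, 3.96). The first ended 316 bp before the next region of the untreated-labelled library, and the second also lies over the divergent noncoding gene YAP1-DT.

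A region in the first few kb of YAP1 was common to both. It spanned 102111807 to 102112277 (27, 5.51) in the lactate-labelled library and 102112005 to 102112236 (21, 4.64) in the untreated-labelled library. In the middle of the gene the regions were 102178216 to 102178585 (21, 6.75) and 102178310 to 102178600 (13, 4.61). The strongest lay 11.8 kb beyond the far end, from 102244813 to 102245588 (36, 7.20) and from 102244795 to 102245354 (24, 5.53). In the lactate-labelled library alone were 102138346 to 102138565 (12, 3.80) and 102226127 to 102226409 (10, 2.82), both inside the gene and weaker than the 3 that overlapped.

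WWTR1, the TAZ gene, lies on the minus strand of chromosome 3 from 149517235 to 149724788. It held 12 regions in the lactate-labelled library and 11 in the untreated-labelled library, all of them inside the gene and none within 1 kb of an end. The 8 pairs that overlapped differed in direction, with the lactate-labelled library higher per tag in 2 and lower in 6. Of these, the pair at the inner start printed above spanned 149657915 to 149658539 (35, 6.02) in the lactate-labelled library and 149657740 to 149658512 (20, 4.20) in the untreated-labelled library, a ratio per tag of 1.82 (95% interval 1.02 to 3.32). It also lies over WWTR1-AS1, so its tags cannot be given to one of the genes. From the window of the outer start the nearest region was 11628 bp away in the lactate-labelled library and 11061 bp away in the untreated-labelled library.

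A cluster of regions lay between 149575627 and 149587209 in the body of WWTR1. Its highest pileup in the lactate-labelled library was at 149576099 to 149576510 (45, 6.50), where the untreated-labelled library had 149576079 to 149576492 (23, 4.01), a ratio of 2.03 (interval 1.20 to 3.52). A second pair was 149581784 to 149582261 (38, 5.91) in the lactate-labelled library and 149581793 to 149582259 (44, 7.58) in the untreated-labelled library, where it was the highest of the cluster. The highest point of the cluster was thus not the same in the lists. The weaker pairs were 149575627 to 149575946 (16, 2.52) with 149575652 to 149575935 (25, 4.51), and 149587010 to 149587209 (11, 3.37) with 149586992 to 149587201 (14, 3.54), each with the lactate-labelled library first.

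The 3 other pairs in WWTR1 were lower per tag in the lactate-labelled library, with intervals that held 1. They spanned 149540159 to 149540358 (12, 5.56) and 149540044 to 149540313 (15, 5.88), 149618615 to 149619294 (11, 3.64) and 149618636 to 149619128 (21, 6.21), and 149678444 to 149678656 (14, 5.40) and 149678242 to 149678706 (19, 7.04), again with the lactate-labelled library first in each pair. The second of them had the lowest ratio of all pairs at these genes, 0.544 (interval 0.237 to 1.18). Regions without overlap numbered 4 in the lactate-labelled library, at 149554842 to 149555091 (8, 3.41), 149604671 to 149605026 (8, 3.49), 149646221 to 149646422 (17, 6.21) and 149715152 to 149715357 (8, 3.24). The untreated-labelled library had 3, at 149530783 to 149531067 (10, 4.44), 149580232 to 149580431 (24, 3.42) and 149714585 to 149714819 (11, 3.77). The last of each list were 332 bp apart, and the region with a fold of 6.21 was the strongest of all regions found in 1 library alone at the 10 genes.

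TEAD1, the longest of the TEAD genes, spans chromosome 11 from 12674421 to 12944737. It had 12 regions in the lactate-labelled library and 7 in the untreated-labelled library, with 6 pairs. The region across its lower end, 12674056 to 12674795 (13, 4.46), was in the lactate-labelled library alone, and the nearest region of the other library was 18838 bp away. The pair with the highest fold enrichment in the lactate-labelled library was 12746623 to 12747023 (20, 6.86) in the lactate-labelled library and 12746583 to 12747024 (11, 4.58) in the untreated-labelled library. The pair with the highest pileups in both was 12723851 to 12725008 (30, 5.25), with 4 summits, over 12724423 to 12724910 (21, 4.53). The other pairs, the lactate-labelled library first, were 12693645 to 12694151 (20, 4.65) and 12693634 to 12693886 (20, 4.67), 12697024 to 12697223 (16, 4.13) and 12696750 to 12697193 (13, 3.45), 12802666 to 12803006 (9, 3.21) and 12802729 to 12802949 (11, 3.61), and 12900535 to 12900802 (13, 5.07) and 12900601 to 12900800 (10, 4.26).

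The remaining TEAD1 regions of the lactate-labelled library were weak. They lay at 12687563 to 12688125 (12, 3.65), 12770081 to 12770366 (11, 3.61), 12800180 to 12800463 (9, 3.57), 12813611 to 12813937 (9, 3.50) and, beyond the upper end, 12964100 to 12964313 (11, 3.64). The untreated-labelled library had 1 region without overlap, also beyond the upper end, at 12959042 to 12959302 (9, 4.35). So 5 of the 6 regions that the lactate-labelled library held alone had a pileup of 9 to 12 tags.

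TEAD2 lies on the minus strand of chromosome 19 from 49340595 to 49362416, among close neighbours. Just before its start, both libraries had a region, 49363324 to 49364063 (55, 10.0) in the lactate-labelled library and 49363412 to 49363975 (40, 7.85) in the untreated-labelled library. It had the highest fold enrichment in each list at the 10 genes, and also overlaps the neighbour DKKL1. The region at the other end, 49338789 to 49339781 (37, 6.81) and 49338853 to 49339705 (29, 6.05), lies over CD37, a tetraspanin gene, and SLC6A16. Inside TEAD2 away from its ends there was 1 region, in the untreated-labelled library alone, at 49347688 to 49348092 (10, 3.96).

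TEAD3 lies on the minus strand of chromosome 6 from 35473597 to 35497079. Its main mark was in the middle of the gene, where 1 region of the lactate-labelled library, 35484904 to 35486431 (49, 5.56, 4 summits), covered 3 of the untreated-labelled library, 35484885 to 35485216 (34, 4.96), 35485342 to 35485883 (31, 4.58) and 35486074 to 35486410 (18, 2.68). The far end of the gene had 35474247 to 35475071 (20, 3.23) in the lactate-labelled library alone. From the promoter window the nearest region was 10598 bp away in the lactate-labelled library and 10619 bp away in the untreated-labelled library. Below the gene a pair lay over RPL10A, a ribosomal protein gene, at 35468131 to 35468596 (31, 6.45) and 35468160 to 35468433 (13, 3.02), with a ratio per tag of 2.48 (interval 1.26 to 5.15).

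TEAD4, on chromosome 12 from 2959397 to 3040676, was the only one of the 10 genes with regions in 1 list and none in the other. The lactate-labelled library had 5 regions, and the untreated-labelled library had 0. At the lower end were 2958485 to 2958731 (15, 3.57) and 2958942 to 2959451 (18, 4.06), both also over a noncoding gene, LOC124902859. At the upper end was 3041602 to 3041801 (12, 3.13), and in the flanks were 2944678 to 2944914 (14, 5.00) and 3046951 to 3047289 (13, 3.61). None lay inside the gene away from its ends.

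The nearest regions of the untreated-labelled library were 50253 to 68014 bp from these 5. Of all protein-coding genes 5.9% had a region within 20 kb in the lactate-labelled library alone, and 0.0599% had at least 5 there and 0 in the other, a limit set after the TEAD4 values were seen. The pileups of 12 to 18 tags are at the usual height of both lists, since 64.0% of regions in the lactate-labelled library and 70.5% in the untreated-labelled library had at most 18 tags. The lists hold only called regions, so the tags of the untreated-labelled library at these places are not known. With a fold enrichment of at least 5, a single TEAD4 region was left.

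CCN1, formerly CYR61, is a short gene on chromosome 1 from 85580761 to 85583950. Its lower end was covered in both libraries, by 85580457 to 85581063 (34, 3.59) in the lactate-labelled library and 85580488 to 85581030 (21, 2.67) in the untreated-labelled library. At the upper end each library had a region, 85584318 to 85584588 (26, 2.91) and 85584012 to 85584211 (21, 2.66), which missed each other by 106 bp. The strongest pair was beyond the upper end, 15.2 kb away in the lactate-labelled library, at 85598919 to 85599401 (30, 8.03) and 85598960 to 85599470 (25, 6.63). The regions at the gene itself thus had pileups close to that of the distal one and much lower fold enrichments.

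CCN2, formerly CTGF, had a single region in each list, at its promoter. The gene lies on the minus strand of chromosome 6 from 131948176 to 131951372, and the regions spanned 131951100 to 131951555 (32, 6.79) in the lactate-labelled library and 131951255 to 131951556 (20, 4.71) in the untreated-labelled library. The ratio per tag was 1.66 (interval 0.921 to 3.06). The summit lay 0.055 kb before the start in the lactate-labelled library and 0.030 kb before it in the untreated-labelled library. The noncoding gene CCN2-AS1 also lies there, and its tags cannot be told apart from those of CCN2.

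AMOTL2, on the minus strand of chromosome 3 from 134355345 to 134375417, had the most regions for its length, 7 in each library, with 4 pairs. The promoter pair was 134374376 to 134375372 (43, 4.05) in the lactate-labelled library and 134374454 to 134375522 (34, 3.91) in the untreated-labelled library. It overlapped both promoter windows of the gene, in the lactate-labelled library by only 5 bases of the outer one. The strongest pair lay 6.63 kb before the outer start in the lactate-labelled library, at 134381854 to 134382239 (52, 9.43) and 134381851 to 134382250 (37, 7.17).

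The other AMOTL2 pairs were 134364248 to 134364697 (28, 3.70) with 134364213 to 134364779 (25, 3.63), inside the gene, and 134350927 to 134351227 (36, 5.11) with 134350834 to 134351202 (32, 4.55), beyond its far end, the lactate-labelled library first. Regions without overlap were 3 in each list. In the lactate-labelled library they were 134336721 to 134337548 (24, 3.42), 134337965 to 134338164 (21, 3.05) and 134358470 to 134358669 (23, 3.40). The untreated-labelled library had 134348684 to 134348904 (25, 3.87), 134357899 to 134358098 (22, 3.54) and 134389166 to 134389383 (9, 3.33). The ones inside the gene were 371 bp apart.

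ANKRD1 lies on the minus strand of chromosome 10 from 90912096 to 90921087. Its start carried 90921020 to 90921710 (16, 7.08) in the lactate-labelled library and 90921286 to 90921718 (14, 6.15) in the untreated-labelled library. Its far end carried 90911609 to 90911863 (12, 5.75) in the lactate-labelled library alone. These are low pileups with high fold enrichments, the reverse of CCN1.

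The plot of region density sets the counts against length. Regulators had a median of 3.99 regions per 100 kb of gene and flanks in the lactate-labelled library, and targets had 5.51. The median over all protein-coding genes was 2.82. In the untreated-labelled library these were 3.45 for regulators, 4.63 for targets and 2.31 for all genes. Among targets AMOTL2 had 11.7 in both libraries, CCN1 6.95 in both, CCN2 2.31 in both and ANKRD1 4.08 in the lactate-labelled library and 2.04 in the untreated-labelled library. AMOTL2 exceeded 97.6% of all genes in the lactate-labelled library. Among regulators the range was 3.24 at TEAD2 to 4.85 at WWTR1 in the lactate-labelled library, and 0 at TEAD4 to 6.30 at TEAD3 in the untreated-labelled library. Targets and regulators overlapped in density in both libraries.

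**Figure D2:**
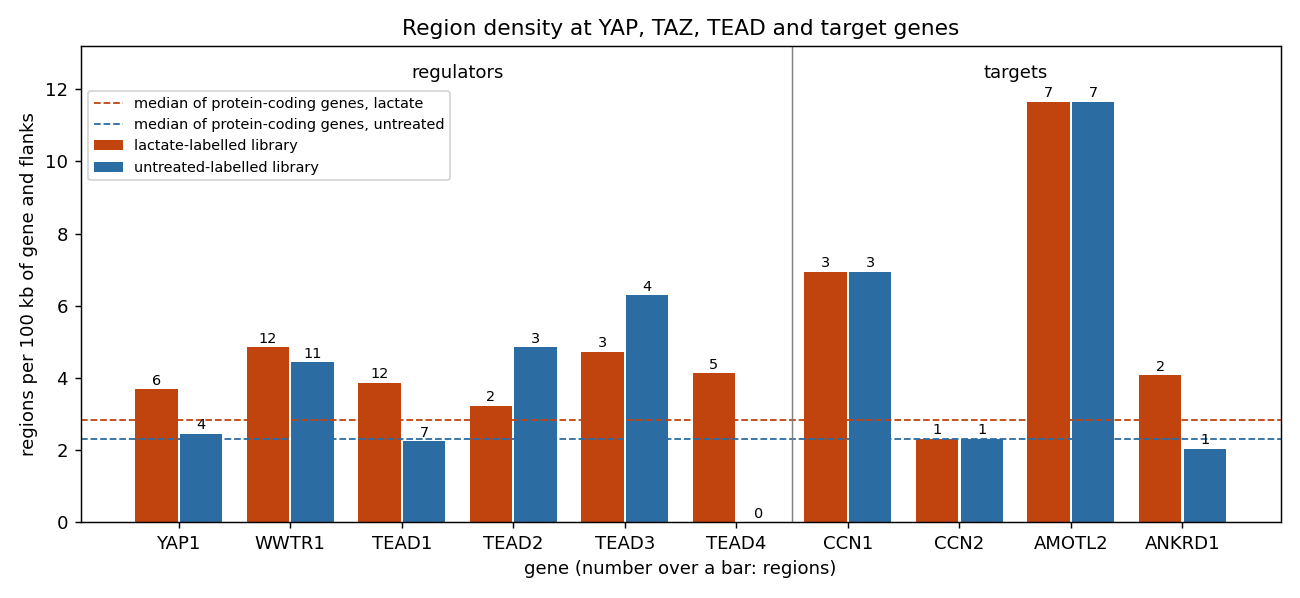
Bars give the regions per 100 kb of gene and flanks (y axis) for each gene (x axis) in the lactate-labelled library (left bar) and the untreated-labelled library (right bar), with the number of regions above. Dashed lines are the medians over all protein-coding genes, 2.82 and 2.31, and AMOTL2 stands highest at 11.7 in both.

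Regions inside genes, away from the ends, were mostly those of the regulators, whose genes are longer. Of the 40 regulator regions in the lactate-labelled library 27 lay inside a gene away from its ends and 8 at an end, and of the 29 in the untreated-labelled library 23 and 3 did. Of the 13 target regions in the lactate-labelled library 2 lay inside and 6 at an end, and of the 12 in the untreated-labelled library 2 and 5 did. Over all regions, 20.7% in the lactate-labelled library and 20.03% in the untreated-labelled library lay within 1 kb of a protein-coding gene end.

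The share of regions that overlapped had an interval that held the share of all regions, in both libraries. In the lactate-labelled library 29 of 53 regions overlapped one of the other library (54.7%, 95% interval 40.4 to 68.4), against 61.2% of all its regions. In the untreated-labelled library 31 of 41 did (75.6%, interval 59.7 to 87.6), against 71.2%. By role these were 21 of 40 and 23 of 29 at regulators, and 8 of 13 and 8 of 12 at targets. Of the regions without overlap, 4 of 24 in the lactate-labelled library and 3 of 10 in the untreated-labelled library lay within 500 bp of a region of the other.

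Regions found in 1 library alone were the weaker ones. In the lactate-labelled library, their median fold enrichment was 3.59 at regulators and 3.40 at targets, while that of overlapping regions was 5.56 and 5.95. In the untreated-labelled library it was 3.96 and 3.44, while that of overlapping regions was 4.58 and 4.63. Over all regions the values were 4.20 alone and 5.47 overlapping in the lactate-labelled library, and 4.04 and 4.97 in the untreated-labelled library. The exceptions among those alone, at a fold of 5 or more, were in WWTR1 (6.21), at ANKRD1 (5.75) and at TEAD4 (5.00), all in the lactate-labelled library.

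**Figure D3:**
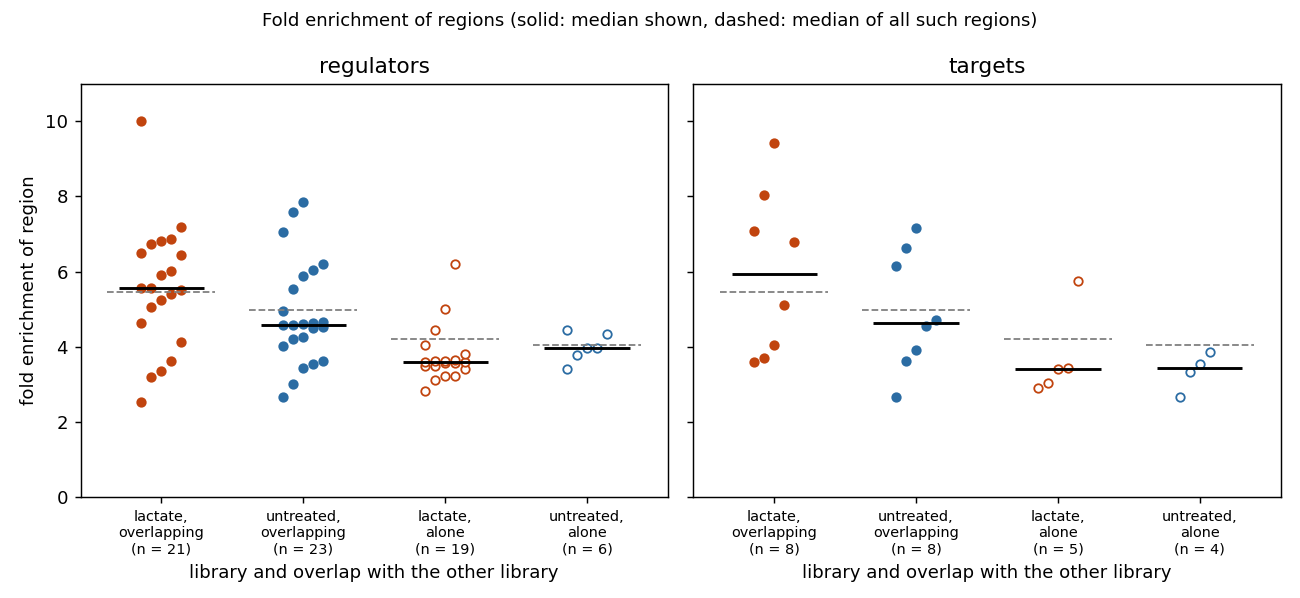
Points are regions, by fold enrichment (y axis), for regulators (left panel) and targets (right panel), split by library and by overlap with the other library (x axis). Solid lines are the medians of the points and dashed lines those of all regions of the same kind, and in each panel the overlapping regions have the higher median in both libraries.

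The pileup at overlapping regions was higher per tag in the lactate-labelled library, with an interval that held the ratio over all shared regions. Summed over the 29 and 31 overlapping regions it was 817 tags in the lactate-labelled library and 698 tags in the untreated-labelled library. The ratio per tag was 1.215 (95% interval 1.10 to 1.35), and the ratio over all shared regions was 1.221. Regulators had 546 tags over 21 regions and 490 tags over 23 regions, a ratio of 1.16 (interval 1.02 to 1.31), and targets 271 and 208 tags over 8 regions each, a ratio of 1.35 (interval 1.12 to 1.63). At TEAD3 1 region of the lactate-labelled library (49 tags) is set here against 3 of the untreated-labelled library (34, 31 and 18 tags). With an overlap of at least 50% of both regions the regulators' ratio was 1.29 and the targets' 1.35. The median over pairs was 1.35 at regulators, where the TEAD3 region of 49 tags enters 3 pairs, and 1.28 at targets. The order of the roles thus differed between summed tags and the median pair.

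Scaled by all shared regions in place of total tags, the ratio over the 10 genes was 0.995, the regulators' 0.947 and the targets' 1.11. With the overlap of at least 50% and the scale taken from all regions that meet it, a setting chosen after seeing the data, the ratios were 1.06, 1.04 and 1.09. The intervals held 1 in each of these, so relative to all shared regions no direction was given for either role.

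By pair, 24 of 31 were higher per tag in the lactate-labelled library (77.4%), against 71.1% of all 31725 pairs. At targets all 8 pairs were higher, with ratios of 1.16 to 1.68, and at regulators 16 of 23 were, with ratios of 0.544 to 2.83. The TEAD3 region of the lactate-labelled library at 35484904 to 35486431 enters 3 of these regulator pairs with the same summit. The ratio of 2.83 sets that summit, at 35485751, against one of the untreated-labelled library at 35486311. In TEAD1 the summits of 1 pair, at 12723982 and 12724542, also lay apart. Such pairs do not compare the same site. No target pair alone had an interval without 1. Of the 5 regulator pairs that did, 2 were in WWTR1 and 3 at TEAD3, of which 2 share 1 region of the lactate-labelled library. All 3 pairs at YAP1 and both at TEAD2 were higher in the lactate-labelled library, as were 5 of 6 at TEAD1, while WWTR1 had 6 of 8 lower.

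**Figure D4:**
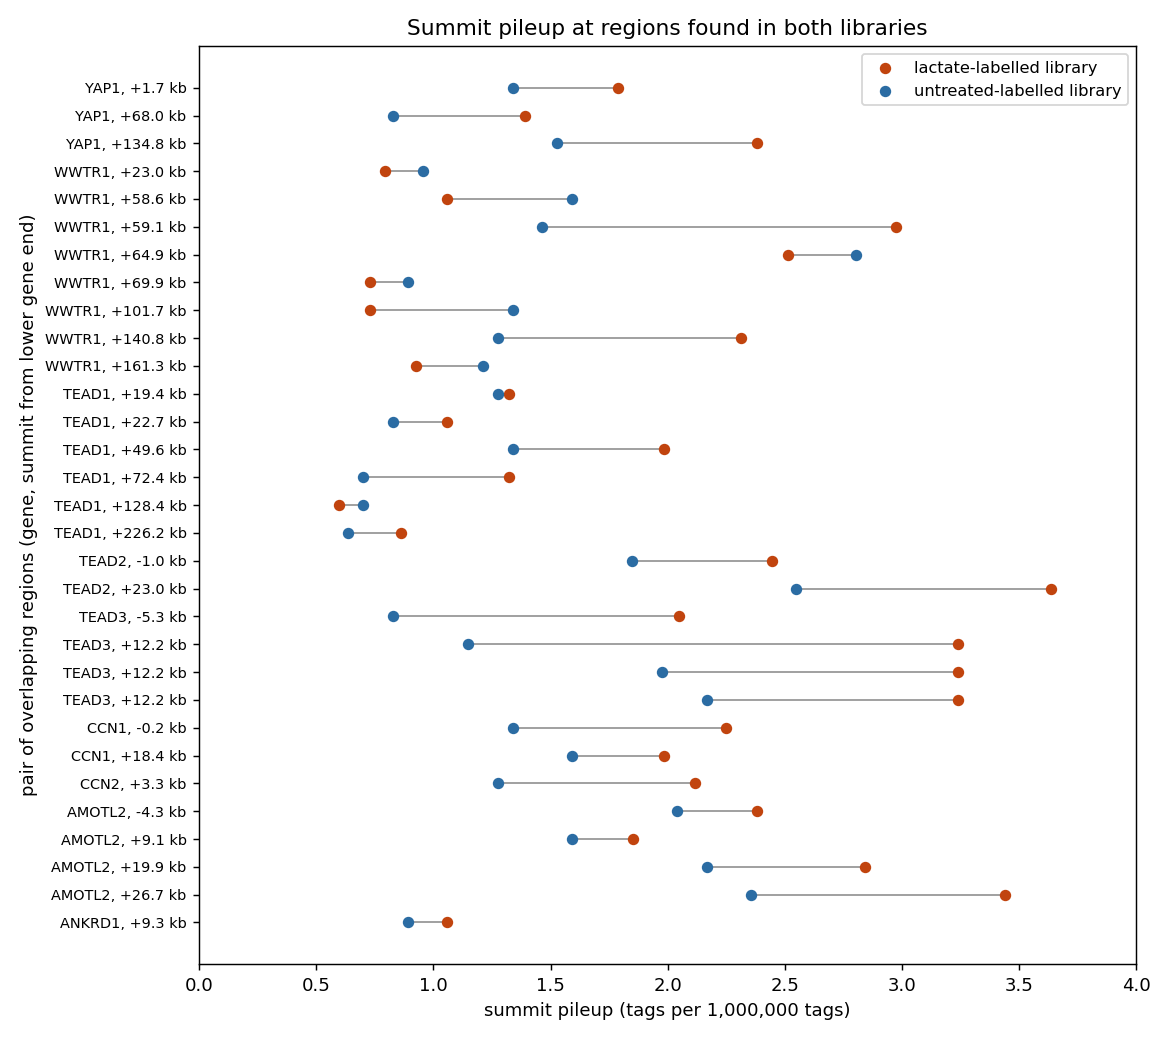
Each row is a pair of overlapping regions, named by gene and by the summit's distance from the lower gene end, and the points give the summit pileup in tags per 1000000 tags (x axis) in the lactate-labelled library and the untreated-labelled library. The 8 target pairs, in the lower part, are all higher in the lactate-labelled library, and 6 of the 8 WWTR1 pairs are lower.

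The local background had a higher median at targets than at regulators, but not at each gene. This background, recomputed from pileup and fold, had a median of 0.180 tags per 1000000 at regulator regions and 0.411 at target regions in the lactate-labelled library, and of 0.224 and 0.357 in the untreated-labelled library. The medians over all regions were 0.146 (lactate) and 0.135 (untreated). Among targets AMOTL2 had a median of 0.413 in the lactate-labelled library and 0.364 in the untreated-labelled library, and CCN1, with 0.548 and 0.461. ANKRD1, with 0.0880 and 0.0917, had the lowest median of the genes with a region in each library, and TEAD3, a regulator, had 0.364 and 0.384. By its definition the fold enrichment is lower for the same pileup where this background is higher, as at the CCN1 gene itself. Since peaks were called without a control, the background comes from the library itself. It does not set nonspecific signal apart from the mark.

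Of 39 other genes of the pathway in 3 lists, 23 had a gene-end region in the lactate-labelled library, against 49.5% of all genes. In the untreated-labelled library 24 did, against 43.5%. Both libraries had one at 21 genes, against 39.8% of all genes. The lactate-labelled library alone had one at 2, against 9.7%, and the untreated-labelled library alone at 3, against 3.74%. Among 13 Hippo kinases and upstream genes, 9 and 10 were marked. Among genes marked in both, the highest fold enrichments in the lactate-labelled library were at TAOK1, a kinase that activates the Hippo kinases, with 9.36 in the lactate-labelled library and 6.09 in the untreated-labelled library, and at MOB1A, a cofactor of the LATS kinases, with 7.25 and 6.25. MAP4K4, another upstream kinase, was marked in the untreated-labelled library alone (3.29).

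Among 8 co-regulators 3 were marked in each library. VGLL3, a TEAD cofactor, had 5.86 in the lactate-labelled library and 5.32 in the untreated-labelled library, and AMOTL1, an angiomotin, had 5.31 and 5.07. Of 18 further targets 11 were marked in each library. F3, the tissue factor gene, had 6.56 and 5.66, and AXL, a receptor tyrosine kinase gene, had 5.87 and 2.69. AREG, an EGF family ligand (5.16), and MYOF, a membrane repair protein (4.17), were marked in the lactate-labelled library alone, and ASAP1, an ARF regulator (4.11), and RBMS3, an RNA-binding protein (5.83), in the untreated-labelled library alone. With a fold enrichment of at least 5, 13 of the 39 were marked in the lactate-labelled library and 10 in the untreated-labelled library. Lists of equal length gave the same counts. The shares of all genes were 30.3% and 23.3% with the fold limit and 28.8% and 27.3% with equal lists. Which library had more thus depends on the setting. The counts with the fold limit and with equal lists are near the shares of all genes. The counts without a limit lie above theirs, and whether they do so beyond counting error was not tested.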

How the data were processed

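CUT&Tag peak lists of 2 libraries were used, 1 labelled lactate and 1 labelled untreated, as grouped by the sample labels. The submitters' processing notes name the build hg38 and the tools MACS2 2.1.0, BWA and fastp 0.20.0. Per the file headers, MACS version 2.1.0.20150420 called peaks in each library separately, without a control, with a shift of -100 bp, 200 bp extension and a q limit of 0.05. The authors' deposited pileup is an unscaled signal, the tags over the summit. Their deposited fold enrichment is the ratio of pileup to local background, each plus 1. The sources used here do not say whether a spike-in was used.

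Summits of the same start and end were collapsed to 1 region, represented by the summit of highest fold. Overlap meant at least 1 bp. Genes and promoter sequences came from RefSeq tables for GRCh38.p14, the same build. The gene table carries no strand or exons, so both gene ends were counted and regions were not assigned to exons or introns. Strand was taken from the promoter table where it held the gene. The 95% intervals are exact: Clopper-Pearson for shares, and for ratios the same on the share of tags or regions. Tags are not independent molecules. The genes, lists and tests were chosen with earlier results of these data known. All 10 genes are named. Of the other lists, genes marked in 1 library alone and the 2 of highest fold among those marked in both are named. The counting was tested on simulated data. The work used numpy 2.4.6, matplotlib 3.10.9, SciPy 1.17.1, pandas 2.3.3 and Python 3.11.15.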

Additional observations from a re-analysis of the deposited data

How the results depend on the processing

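Alternatives were run for the counts, shares, densities and ratios at the 10 genes and for the gene-end count of the other pathway genes. Of 80 values, 47 stayed near the reported ones, 31 moved and 2 reversed. Near means inside the 95% interval of the reported value or, where it has none, within a factor of 1.5. A ratio that crossed 1 was counted as reversed. Some of these intervals are wide, so the count is a loose measure of stability. With a fold enrichment of at least 5, the lactate-labelled library had 23 regions and the untreated-labelled library 10, a ratio of 2.30, and 39.1% and 90.0% overlapped. At this limit the ratio and overlap over all regions and the density over all genes were not computed, so these values have no background beside them. The median density was 2.13 and 0.307 per 100 kb at regulators and 2.82 and 1.85 at targets, 3 and 2 of the 10 genes had a gene-end region, against 30.3% and 23.3% of all genes, and 13 and 10 of the other pathway genes did. When each list was limited to its 21840 strongest, the regions numbered 21 and 14, the densities were 2.13 and 1.40 at regulators and 2.82 and 2.18 at targets, 3 and 3 genes had a gene-end region, against 28.8% and 27.3% of all genes, and 13 and 10 other genes did. This setting changes both the length and the strength of the lists. A window of 50 kb gave 80 and 66 regions. One of 5 kb gave densities of 4.72 and 3.66 at regulators and 11.9 and 10.4 at targets. No density over all genes is given for these windows. Where an overlap had to cover at least 50% of both regions, 56.1% of those of the untreated-labelled library overlapped. Scaled by all shared regions, the pileup ratio reversed to 0.947 at regulators and 0.995 over all 10 genes, and was 1.11 at targets. Its sums set 1 TEAD3 region against 3: with an overlap of at least 50% the ratios per tag were 1.29, 1.32 and 1.35, and with the matching scale 1.04, 1.06 and 1.09. That last setting and the gap of 500 bp were chosen after seeing the data. No paired analysis was possible because each group had 1 library. Pileups of 8 to 55 tags limit the precision of each region.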
